A study of Vulpes vulpes with 8 samples.

Results

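The Toll-like receptors and the proteins they work with were followed here in the gingiva of red foxes (Vulpes vulpes) with hereditary hyperplastic gingivitis (HHG), an inherited overgrowth of the gum. The members were the genes TLR1, TLR2, TLR3, TLR4, TLR5, TLR7, TLR8, CD14, LY96 and MYD88, taken as every probe set that the array annotation ties to 1 of these 10 symbols alone. That gave 14 probe sets of 43035 on the array, for 8 of the symbols, and TLR7 and TLR8 are not analysed here. The affected group held 5 foxes diagnosed with HHG, the males 19, 55 and 107 and the females 381 and 757. The unaffected group held 3 foxes without that diagnosis, the males 86 and 97 and the female 402. Per the series' design text, the diagnosis rested on early signs, namely reddened, raised and grainy gum along the edges of the teeth. No age, strain or treatment is given in the sources used here, and samples came either from euthanized foxes in pelting season or from anaesthetised foxes in late spring, with no season given per fox. Each fox gave 1 array, an Affymetrix Canine 2 chip whose dog probes read the fox RNA, and how well they match the fox transcripts was not tested.

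Toll-like receptors are sensors of the innate immune system that bind conserved molecules of microbes. Those on the cell surface bind bacterial products: TLR2 pairs with TLR1 to bind lipoproteins, TLR4 binds lipopolysaccharide and TLR5 binds flagellin, while TLR3 reads double-stranded RNA inside endosomes. CD14 hands lipopolysaccharide to the complex of TLR4 with LY96 (MD-2), and MYD88 is the adaptor that carries the signal of nearly every receptor of the family, TLR3 excepted, towards the transcription factor NF-kappa-B. Gum tissue lies against the bacterial film on the teeth, and these receptors are known from its epithelium, fibroblasts, vessels and leukocytes.

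The values are the deposited MAS5 signals on a linear scale, and tests ran on log2(signal + 16), so each log2 difference (affected minus unaffected) is on that scale and understates the change of a dim probe set. The arrays were alike in overall level, with median signals of 28.6 to 33.7 and 63.5% to 74.7% of probe sets above background, with background set on each array at the 95th percentile of its 42 bacterial control probe sets. A control probe set for the 5' end of actin read 1551, 1354 and 1542 in affected foxes 19, 55 and 381 and 2336 in unaffected fox 402. It read 8773 and 8868 in affected foxes 107 and 757 and 7901 and 7831 in unaffected foxes 86 and 97. Foxes therefore fell into a set of low and a set of high 5' actin, each holding both groups, and differences within these sets are given for the brightest probe set of each tested member. The low set holds fox 402 as its only unaffected fox, so every difference within it rests on that fox as the reference. A fit with the actin ratio (the 5' over the 3' actin signal, as log2) as a covariate is given where it moved a value by over 1.5 times. The gum samples carried squamous epithelium, fibroblasts and leukocytes by their markers. The summed signal of 9 macrophage and monocyte markers was 1527, 4826, 5399, 3711 and 5239 in affected foxes 19, 55, 107, 381 and 757. In unaffected foxes 86, 97 and 402 it was 7223, 2092 and 2136, so by this sum fox 86 stood well above the other unaffected foxes and fox 19 lowest of all. Bright markers weigh most in such a linear sum. Fox 19 was lowest for CSF1R, AIF1, C1QA, C1QB, CYBB and LAPTM5. It was not low for CD68, CD163 and MRC1, at 297, 105 and 131, and its CD163 was the highest of all foxes. In such whole tissue, fewer cells of a type and less RNA per cell cannot be told apart.

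**Figure D1:**
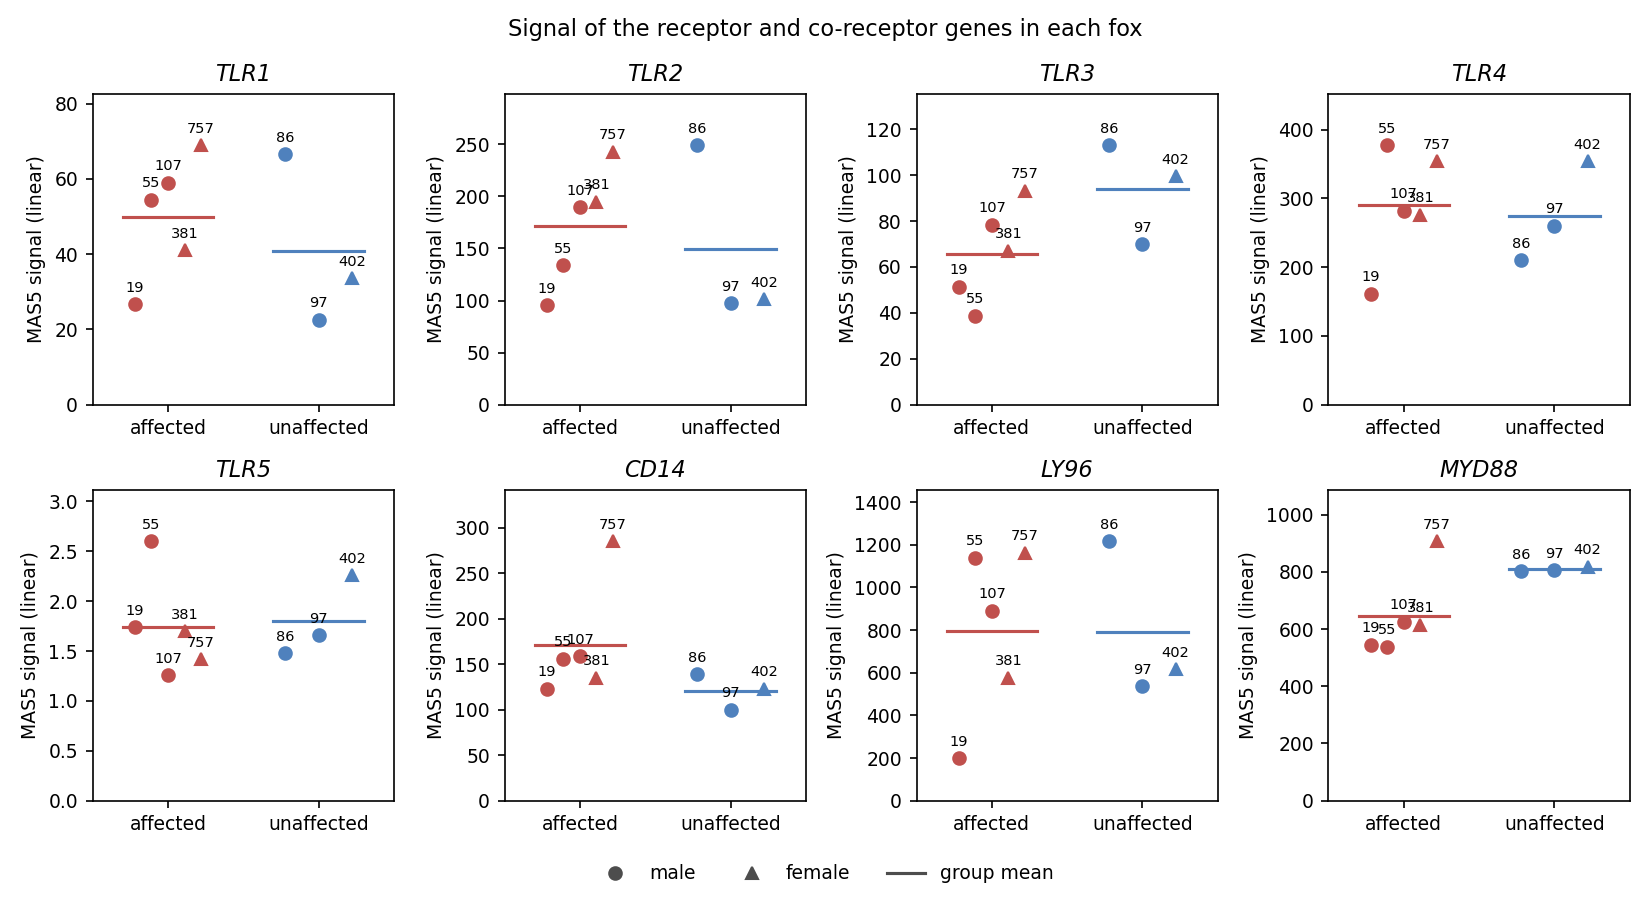
MAS5 signal (linear, from 0) of the brightest probe set of each member gene, with affected foxes on the left and unaffected foxes on the right of each panel; circles are males, triangles females, numbers name the foxes and bars are group means. Groups overlap in every panel; 4 of the 5 affected foxes lie below all 3 unaffected foxes for MYD88, and every TLR5 value lies under the background of its array.

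No member passed the test for a difference between affected and unaffected gum. With limma and Benjamini-Hochberg adjustment over 25716 probe sets, 0 of the 13 tested member probe sets were called (adjusted p = 0.9999 for each), against a background of 0% of all probe sets. At an unadjusted p under 0.05 there were 0 members, while 2.68% of all probe sets were that low. Complete separation of the groups was seen in 0 of the 13, against 2.43% of all probe sets. With the brightest probe set for each gene, 4 of the 7 tested genes had higher means in affected foxes and 3 lower, with a median log2 difference of 0.052. Over all 10832 genes, 45.3% had higher means and the median was -0.027. The members varied between foxes of the same group somewhat more than most genes, with a median SD of 0.42 on the log2 scale against 0.31 over all genes.

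TLR2, the receptor of bacterial lipoproteins, is read by 3 probe sets. The brightest gave 95.4, 134, 189.7, 195 and 243 in affected foxes 19, 55, 107, 381 and 757, and 249, 97.5 and 101 in unaffected foxes 86, 97 and 402. Affected fox 19 thus lay with the 2 low unaffected foxes, and unaffected fox 86 was the highest of all 8. The means were 171 ± 57.4 in the affected group and 149 ± 86.3 in the unaffected group (SD, n = 5 and n = 3), a log2 difference of 0.24 ± 0.35 (SE) with a 95% interval of -0.53 to 1.01. The 3 foxes with the lowest TLR2, foxes 19, 97 and 402, were also the 3 with the lowest macrophage marker sums, and fox 86 was highest in both. The part of these cells in the TLR2 values was not tested. Without unaffected fox 86 the difference was 0.64, and without unaffected foxes 97 and 402, each left out alone, it was 0.03 and 0.05. It was 0.41 within foxes of high and 0.37 within foxes of low 5' actin. With the actin ratio as a covariate it was 0.48, and with array weights, which count arrays that vary more for less, 0.51.

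The other TLR2 probe sets gave differences of 0.26 and 0.07. The second read 38.9, 115, 99.9, 147 and 96.3 in the affected foxes, in the same order, and 146, 41.9 and 63.5 in the unaffected foxes. The dimmest read 11.9 in fox 19 against 58.5 to 77.5 in the other affected foxes, and 37.2 to 69.8 in the unaffected foxes. Fox 19 was the lowest of the 8 foxes in each of the 3 TLR2 probe sets.

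TLR1, the partner of TLR2, read 26.7, 54.4, 58.9, 41.0 and 68.9 in affected foxes 19, 55, 107, 381 and 757, against 66.5, 22.6 and 33.6 in unaffected foxes 86, 97 and 402. The groups overlapped over nearly their whole range, at means of 50 ± 16.4 for the affected and 40.9 ± 22.8 for the unaffected group (SD, n = 5 and n = 3). The log2 difference was 0.25 ± 0.29 (SE), with an interval of -0.41 to 0.90. It was 0.55 without unaffected fox 86 and 0.00 without unaffected fox 97. Within foxes of high 5' actin it was 0.50 and within those of low 5' actin 0.16, while the actin covariate gave 0.40 and array weights 0.45. In the RefSeq gene table of the fox assembly VulVul3, TLR1 lies between TLR6 and TLR10, which are close relatives, and whether its probe set also reads them was not tested.

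TLR4, the receptor of lipopolysaccharide, read 161, 377, 282, 276 and 354 in affected foxes 19, 55, 107, 381 and 757. It read 210, 259.8 and 354 in unaffected foxes 86, 97 and 402. Affected foxes held both the lowest and the highest value, and the means were close, at 289.9 ± 84.7 for the affected and 274 ± 72.9 for the unaffected group (SD, n = 5 and n = 3). The log2 difference was 0.05 ± 0.28 (SE), with an interval of -0.57 to 0.67, and its other 2 probe sets differed by 0.13 and 0.11. The sign depended on single foxes: the difference was -0.05, -0.03 and -0.11 without affected foxes 55 and 757 and unaffected fox 86. Within foxes of high 5' actin it was 0.41 and within those of low 5' actin -0.44, and array weights gave 0.00.

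Unlike TLR2, TLR4 was not high in unaffected fox 86, which was the lowest of the unaffected foxes for the brightest TLR4 probe set and the lowest of all 8 for the second, at 96.9. In that second probe set affected foxes read 111, 184, 120.4, 175 and 183, in the same order as before, and unaffected foxes 97 and 402 read 129.8 and 202. The third, and dimmest, probe set stayed within 49.5 to 73.0 in the affected group and 45.7 to 72.9 in the unaffected group. Fox 86 thus combined the highest macrophage marker sum with low TLR4 values.

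CD14, which presents lipopolysaccharide to TLR4 and is abundant on monocytes and macrophages, had the largest positive difference among the members. It read 123, 156, 159, 135 and 285 in affected foxes 19, 55, 107, 381 and 757, and 139, 100.2 and 123 in unaffected foxes 86, 97 and 402. Affected foxes 55, 107 and 757 lay above all 3 unaffected foxes, and fox 757 stood well above the rest. The means of 172 ± 65.2 for the affected and 121 ± 19.5 for the unaffected group (SD, n = 5 and n = 3) gave a log2 difference of 0.41 ± 0.26 (SE, unadjusted p = 0.140 and adjusted p = 0.9999 in limma). Of all tested probe sets 10.6% differed by at least as much. Without fox 757 the difference was 0.23, and in each fit without 1 fox it was positive, with 0.51 as the highest. It was 0.77 within foxes of high and 0.15 within foxes of low 5' actin.

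The CD14 difference stood beside mixed differences in other macrophage genes. Of the 9 markers, 7 had higher means in affected foxes (median 0.18), 0 were called and none was at background throughout. CD68, a lysosomal protein, read 344 ± 38.0 in the affected group and 179 ± 109 in the unaffected group (SD, n = 5 and n = 3), a log2 difference of 1.07 that was 0.55 without unaffected fox 97 and 0.31 in its second probe set. In limma its unadjusted p was 0.0119 and its adjusted p 0.9999. CD163 differed by 0.65, and by 0.08 and 0.31 in its other probe sets. It was 0.36 without unaffected fox 402 and 1.01 without unaffected fox 86. AIF1, an actin-binding protein of macrophages, differed by -0.10 and LAPTM5, a lysosomal protein of leukocytes, by -0.09. With 1 fox left out in turn these ran from -0.51 to 0.54 for AIF1 and from -0.46 to 0.52 for LAPTM5, both highest without unaffected fox 86. The count was 4 of 9 without unaffected fox 97 or 402 and 9 of 9 without unaffected fox 86 or affected fox 19. Whether the CD14 difference follows from macrophage content was not tested.

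LY96, which binds lipopolysaccharide together with TLR4, varied most between foxes among the brightest member probe sets, with a ratio of highest to lowest of 6.14. It read 198, 1139, 891, 576 and 1163 in affected foxes 19, 55, 107, 381 and 757. In unaffected foxes 86, 97 and 402 it read 1216, 537 and 616. Fox 19 was far below every other fox of either group, and the other 4 affected foxes lay inside the unaffected range. The group means were nearly equal, at 793 ± 408 for the affected and 789.7 ± 372 for the unaffected group (SD, n = 5 and n = 3). The log2 difference of -0.13 ± 0.54 (SE) had an interval of -1.32 to 1.07, so changes of more than 2-fold in either direction lie inside it. It was 0.29 without affected fox 19 and 0.22 without unaffected fox 86. Within foxes of high 5' actin it was 0.33 and within those of low 5' actin -0.26, and the actin covariate gave 0.12 and array weights 0.13.

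TLR3, the endosomal receptor of double-stranded RNA, had the largest negative difference. It read 51.3, 38.8, 78.5, 67.1 and 93.3 in affected foxes 19, 55, 107, 381 and 757, against 113, 70.0 and 99.6 in unaffected foxes 86, 97 and 402. Affected foxes 19, 55 and 381 lay below all 3 unaffected foxes, while foxes 107 and 757 lay inside their range. The means were 65.8 ± 21.6 for the affected and 94.2 ± 21.9 for the unaffected group (SD, n = 5 and n = 3). The log2 difference was -0.45 ± 0.25 (SE), with an interval of -1.01 to 0.11 and an adjusted p of 0.9999 in limma, and 8.29% of all tested probe sets differed by at least as much. It ranged from -0.62 to -0.32 when each fox was left out in turn. Within foxes of low 5' actin it was -0.78 and within foxes of high 5' actin -0.05, and the 3 lowest affected foxes were all in the low set. In that set fox 402 is the only unaffected fox.

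MYD88, the shared adaptor, was also lower in most affected foxes. Its brightest probe set read 546, 538, 625, 615 and 907 in affected foxes 19, 55, 107, 381 and 757. The unaffected foxes 86, 97 and 402 read 802, 806 and 818, a very narrow range. Affected foxes 19, 55, 107 and 381 were below every unaffected fox, whereas fox 757 was above them all. At means of 646 ± 151 for the affected and 809 ± 8.74 for the unaffected group (SD, n = 5 and n = 3), the log2 difference was -0.34 ± 0.20 (SE), with an interval of -0.78 to 0.10. It was -0.47 without fox 757. In limma the unadjusted p was 0.114 and the adjusted p 0.9999, and 16.4% of all tested probe sets differed by at least as much.

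The second MYD88 probe set gave the same order of groups. It read 373, 334, 419.9, 342 and 492 in affected foxes and 474, 458 and 456 in unaffected foxes, with the same 4 affected foxes below and fox 757 above the unaffected range, and differed by -0.24 ± 0.17 (SE). The third was dim, with 3 affected foxes at background, and its difference was 0.08. The difference of the brightest probe set was -0.52 within foxes of low 5' actin, where fox 402 is the only unaffected fox. Within foxes of high 5' actin it was -0.09, which joins affected foxes on opposite sides. Affected fox 107 read 625 and affected fox 757 read 907 there, against 802 and 806 in unaffected foxes 86 and 97. With the actin ratio as a covariate, the TLR3 difference was -0.27 and that of the brightest MYD88 probe set -0.21, both smaller than without it and of the same sign. Array weights gave -0.29 for TLR3 and -0.31 for MYD88.

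TLR5, the flagellin receptor, had 1 probe set, and it read 1.26 to 2.60 in affected foxes and 1.48 to 2.26 in unaffected foxes. These values were under the background of every array (7.42 to 16.6). The probe set fell among the 40% of probe sets with the lowest means, which were left out, so TLR5 was not tested. Such a reading does not show that the fox gum lacks TLR5 RNA.

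**Figure D2:**
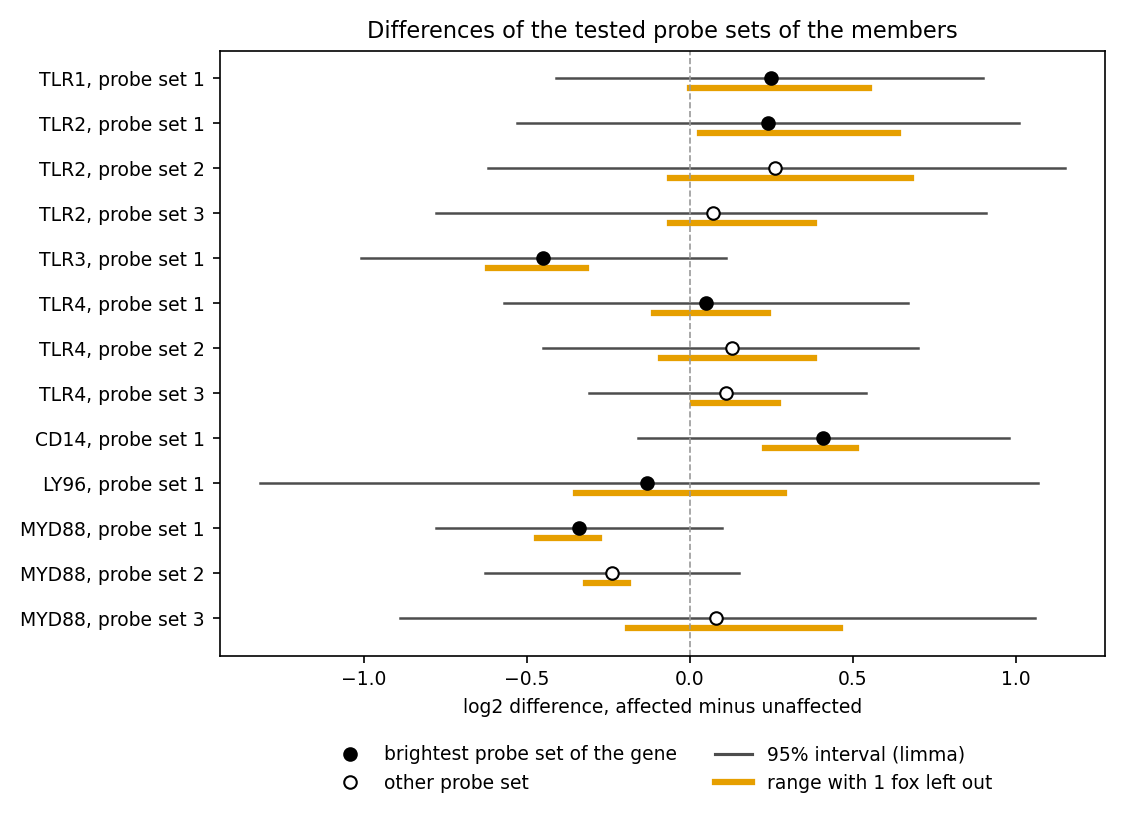
Log2 difference, affected minus unaffected, of the 13 tested member probe sets on log2(signal + 16), with the 95% interval from limma (grey) and the range when each fox is left out in turn (orange); filled points are the brightest probe set of a gene. Every interval includes 0, and the range with 1 fox left out stays on one side of 0 for TLR3, CD14, the brightest TLR2, the third TLR4 and the first 2 MYD88 probe sets.

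Across the members, individual foxes stood out more than the groups did. The mean of the 7 genes, each centred over the 8 foxes on the log2 scale, was -0.65 in affected fox 19 and 0.54 in affected fox 757. For the other affected foxes it was 0.03, 0.15 and -0.06 in foxes 55, 107 and 381, and for unaffected foxes 86, 97 and 402 it was 0.31, -0.28 and -0.04. The most extreme foxes in both directions were therefore affected. Fox 19 was lowest in 6 of the 13 probe sets, where it was lowest in 14.7% of all tested probe sets. Fox 757 was highest in 4 of the 13, where it was highest in 10.3% of all. Probe sets of 1 gene share their transcript, so these counts do not stand for as many separate measurements.

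**Figure D3:**
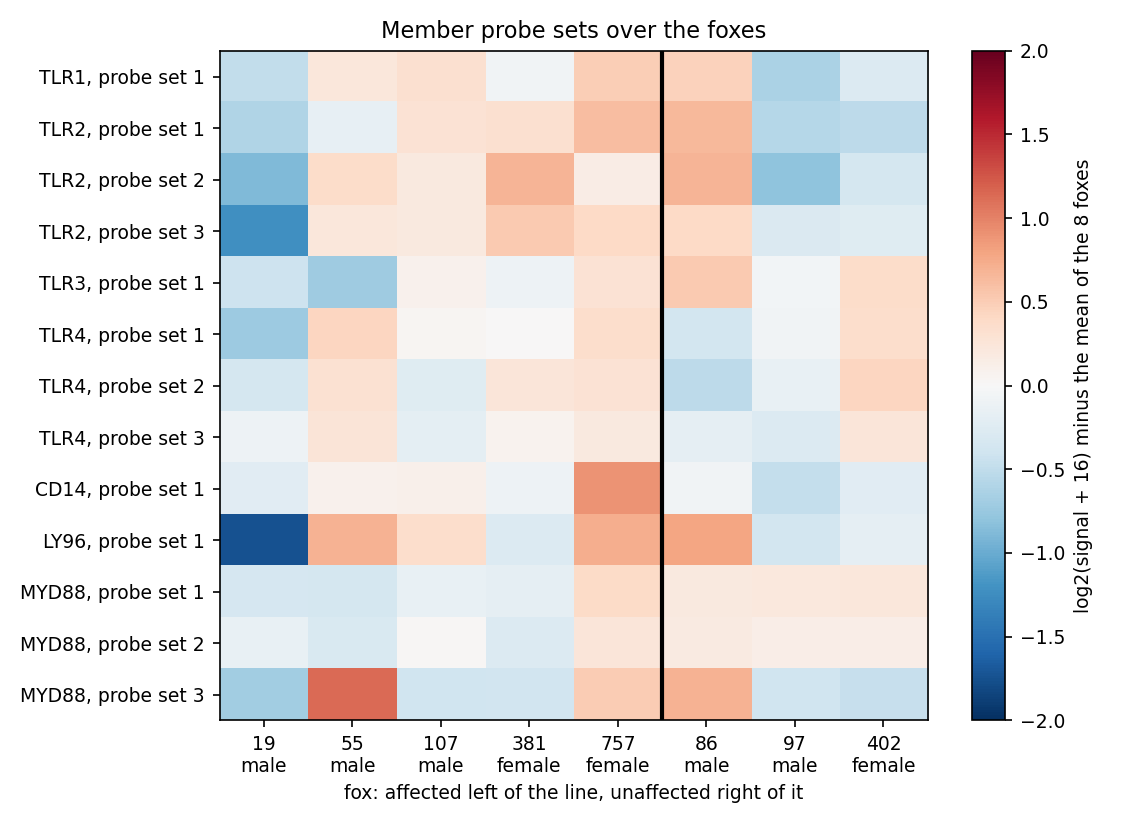
Each cell is log2(signal + 16) of a member probe set minus its mean over the 8 foxes, with affected foxes left and unaffected foxes right of the line. Fox 19 is low for TLR2, TLR4 and LY96, fox 757 is high in most rows, and unaffected fox 86 is high for TLR1, TLR2, TLR3 and LY96 but low for TLR4.

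Receptor partners were compared over the 8 foxes, to ask whether genes whose proteins form a complex varied together. TLR1 and TLR2 did so, with a Pearson r of 0.88 (two-sided exact permutation p = 0.00987, adjusted p = 0.0296 over 3 pairs). The Spearman rho was 0.88 (exact permutation p = 0.00724, adjusted p = 0.0217). Foxes 86 and 757 were high and foxes 19, 97 and 402 low for both genes. Without foxes 97 and 19, those farthest from the median of TLR1, r was 0.78 over 6 foxes. The adjusted p in the exact permutation test was 0.0554, 0.0577, 0.0667 and 0.0827 without affected fox 19, unaffected fox 97, affected fox 107 and affected fox 757. The foxes low for both genes were those with the lowest macrophage marker sums, and the part of shared cells in this relation was not tested. Among 5415 named genes of above-median level, 57 had an r above 0.9 with TLR2 over the same foxes. The permutation test asks whether TLR1 and TLR2 varied together, and not whether partners did so more closely than other genes.

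TLR4 varied less closely with its partners. With CD14 the Pearson r was 0.44 (exact permutation p = 0.272, adjusted p = 0.272) and rho 0.50 (exact permutation p = 0.216, adjusted p = 0.267), and r was 0.46 without foxes 19 and 55. With LY96, r was 0.64 (exact permutation p = 0.0885, adjusted p = 0.133) and rho 0.45 (exact permutation p = 0.267, adjusted p = 0.267). That relation rested on fox 19, since r was 0.07 without it and 0.58 without fox 55, and -0.15 without both. Fox 86 had high LY96 with low TLR4, and without it r was 0.91 (exact permutation, adjusted p = 0.0226). That was the highest r among the fits without 1 fox, so its p belongs to a fit singled out by its value. The fit still holds fox 19. The sets of high and low 5' actin hold 4 foxes each, too few for a value within a set.

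**Figure D4:**
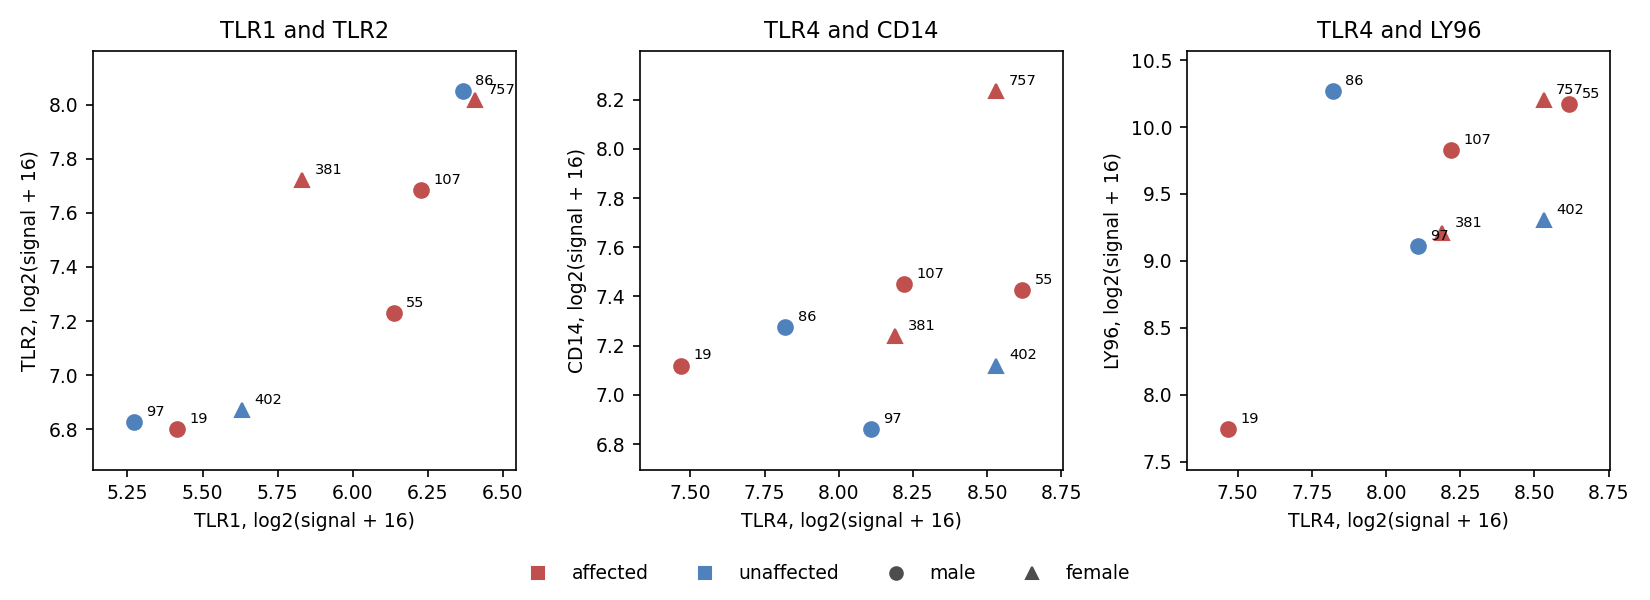
Brightest probe sets of TLR1 and TLR2, TLR4 and CD14, and TLR4 and LY96 on log2(signal + 16), 1 point per fox (red affected, blue unaffected, circles males, triangles females). TLR1 and TLR2 lie along 1 line with both groups mixed, while fox 757 stands apart for CD14 and foxes 19 and 86 for LY96.

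Among the 5415 named genes of above-median level, the genes most like TLR2 over the 8 foxes were GLIPR2 (r = 0.972), STEAP1 (0.960) and PDIA5 (0.954). For TLR4 they were CREBZF (0.965), FBP1 (0.922) and EPHX2 (0.905). For CD14 they were DPYD (0.972), EMP1 (0.960) and SPPL2A (0.954). An r above 0.9 was reached by 57 genes for TLR2, by 3 for TLR4 and by 7 for CD14. With 8 points and so many genes these are descriptions only.

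Sex was compared next, with disease status in the model. Females had higher levels than males in 12 of the 13 member probe sets, at a median log2 difference of 0.26, where 50.3% of all probe sets were higher and their median was 0.001. None of the 13 was called in limma, against 0.00389% of all probe sets, and 1 of the 13 had an unadjusted p under 0.05, against 2.29% of all. That was the second TLR4 probe set, which read 175, 183 and 202 in the females 381, 757 and 402, and 111, 184, 120.4, 96.9 and 129.8 in the males 19, 55, 107, 86 and 97. Only male 55 reached the female range. The log2 difference, female minus male, was 0.51 ± 0.22 (SE, adjusted p = 0.9999 in limma), and the other TLR4 probe sets gave 0.37 and 0.26. The low values of fox 19, a male, enter each of these differences.

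The disease difference was also set against sex. The interaction, the difference in females minus that in males, was positive in 10 of the 13 probe sets, with a median of 0.36, where 54.0% of all probe sets were positive with a median of 0.05. In limma 0 of the 13 were called (adjusted p of 1.0 for each), against a background of 0%, and 0 had an unadjusted p under 0.05, against 2.46% of all. TLR2 had the largest, with a difference of 0.99 in females and -0.20 in males for the brightest probe set. The affected females 381 and 757 read 195 and 243 and unaffected female 402 read 101, while the affected males read 95.4, 134 and 189.7 and the unaffected males 249 and 97.5. The interaction was 1.19 ± 0.69 (SE, adjusted p of 1.0 in limma). It rests on 1 unaffected female.

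The rest of the pathway was read from lists of genes by role, with 0 genes called in any of them. Of the other receptors and chaperones, 4 of 7 tested genes had higher means in affected foxes (median 0.03). CD36, a scavenger receptor that assists TLR2, read 222 ± 143 in the affected group and 123 ± 68.8 in the unaffected group (SD, n = 5 and n = 3), a log2 difference of 0.67, and LY86, the partner of the TLR4-like CD180, differed by 0.22 in 1 probe set and -0.26 in the other. CNPY3, a chaperone of the receptors, and CD180 differed by -0.09 and -0.08. Single foxes moved each of these values by over 1.5 times. CD36 was 0.38 without unaffected fox 97 and 1.05 without unaffected fox 86, and LY86 was 0.04 without unaffected fox 402 and 0.42 without unaffected fox 86. CNPY3 ran from -0.60 (without unaffected fox 402) to 0.30 (without affected fox 19 or unaffected fox 86), and CD180 from -0.32 (without unaffected fox 97) to 0.31 (without unaffected fox 86). The count was 7 of 7 without affected fox 19 or unaffected fox 86 and 2 of 7 without affected fox 757 or unaffected fox 402.

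Downstream of the receptors, 3 of 12 tested adaptors and proximal kinases had higher means (median -0.06), and the count was 6 without affected fox 107 and 5 without affected fox 19 or 55 or unaffected fox 97. RIPK1 and IRAK4, kinases that relay the signal, differed by -0.41 and -0.38. IRAK1, the kinase that IRAK4 activates, differed by 0.18 and TAB2, a subunit of the TAK1 kinase complex, by 0.15, with -0.39 in its second probe set. RIPK1 was -0.19 without affected fox 55 and IRAK4 -0.16 without affected fox 107. IRAK1 was 0.04 and TAB2 0.03 without unaffected fox 97, and without unaffected fox 402 they were 0.32 and 0.31. Of the 8 transcription factors 2 had higher means (median -0.13), and 4 did without affected fox 19 or unaffected fox 86.

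RELA, the main activating subunit of NF-kappa-B, had the largest difference among these factors. It averaged 34.2 ± 12.3 in the affected group and 56.5 ± 18.1 in the unaffected group (SD, n = 5 and n = 3), which differed by -0.54 ± 0.25 on the log2 scale (SE), with an unadjusted p of 0.0564 and an adjusted p of 0.9999 in limma. RELB, a subunit of the slower branch of NF-kappa-B signalling, differed by -0.32, while REL differed by 0.31 and IRF3, which drives interferon beta, by 0.21. RELA was -0.35 without unaffected fox 97, RELB -0.19 without affected fox 19, REL 0.19 without affected fox 55 and IRF3 0.08 without unaffected fox 86. The inhibitors were split, with 3 of 6 higher (median -0.03), from NFKBIA, which holds NF-kappa-B in the cytoplasm, at 0.28 and TNIP1 at 0.13 to CYLD, a deubiquitinase, at -0.14 and IRAK3 at -0.10. Without unaffected fox 86 these 4 were 0.12, -0.04, -0.02 and 0.01, so that TNIP1 and IRAK3 changed sign.

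Among other innate sensors 4 of 5 had higher means (median 0.02), a count that was 2 without affected fox 757 and 1 without unaffected fox 97. TREM1, an amplifying receptor of neutrophils and monocytes, differed by 0.58 with 1 fox of each group at background, IFIH1, a cytosolic RNA sensor, by 0.11 and NOD1, a sensor of bacterial cell wall, by -0.33. Without unaffected fox 97 TREM1 was 0.33 and NOD1 -0.11. IFIH1 ran from -0.10 without unaffected fox 402 to 0.44 without unaffected fox 86. Genes that NF-kappa-B induces had higher means in 9 of 11 (median 0.22), against 45.3% of all genes. The 9 include NFKBIZ, at 0.00, and SOD2, at 0.09. CXCL8, which draws in neutrophils, averaged 2901 ± 889 in the affected group and 1701 ± 955 in the unaffected group (SD, n = 5 and n = 3), and its 3 probe sets differed by 0.86, 1.04 and 1.11. Without unaffected fox 97 the first of these was 0.45. CXCL8 and IL1B, an inflammatory cytokine that differed by 0.72 and is named after its values were seen, were the 2 genes of the list with an unadjusted p under 0.05 in limma. The adjusted p was 0.9999 for both. IL1B was dim, at 26.3 to 40.1 in affected foxes and 29.2, 7.22 and 9.43 in unaffected foxes 86, 97 and 402. Its reading in fox 97 was at background. The count of higher means was 6 of 11 without affected fox 107 or 757 or unaffected fox 402. ICAM1, a leukocyte adhesion molecule, differed by 0.82, or 0.45 without affected fox 55. TNF and CCL20, both cytokines, differed by -0.46 and -0.58. TNF was -0.30 without affected fox 381, where it was at background, and CCL20 was -0.05 without unaffected fox 86.

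**Figure D5:**
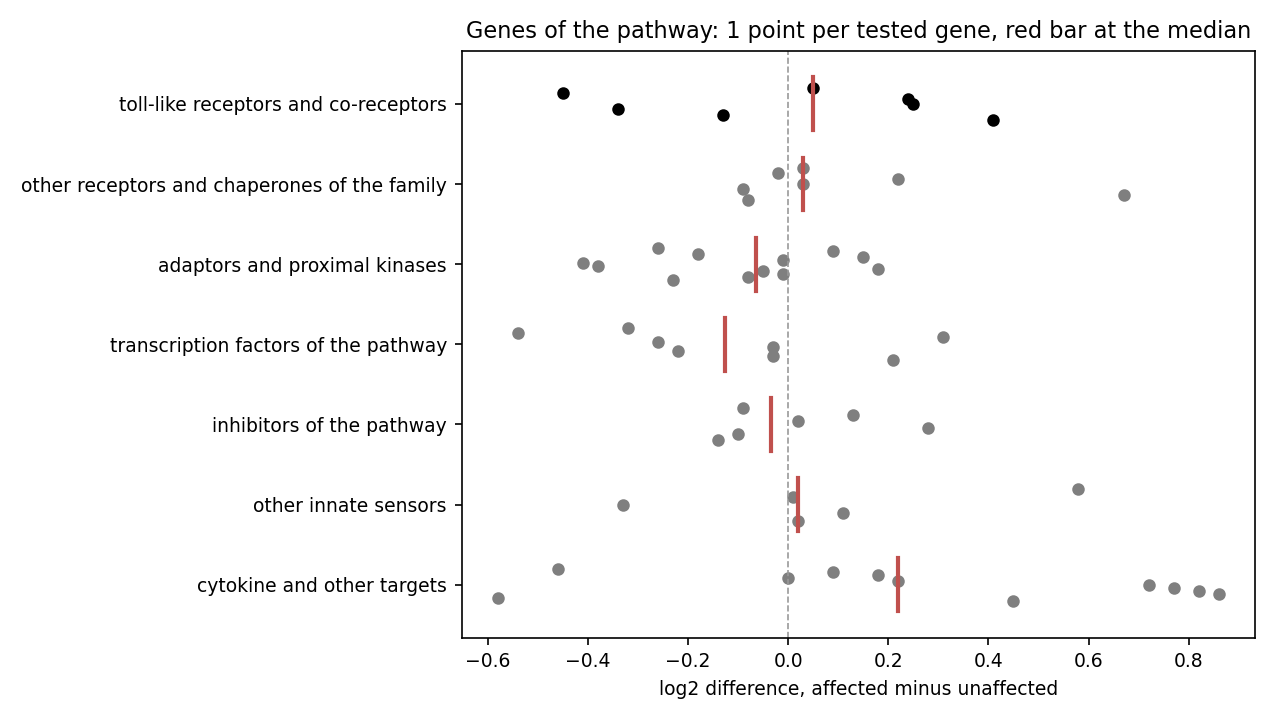
Log2 difference, affected minus unaffected, of each tested gene in 7 lists (1 point per gene, brightest probe set), with the median of each list as a red bar. The members, in black, run from -0.45 to 0.41 on both sides of 0, and the cytokine and other target genes have the highest median, 0.22.

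Markers of the other cells in the tissue also differed widely between foxes. Unaffected fox 86 had the highest sums of T cell, B cell, plasma cell, dendritic cell and fibroblast markers, and affected fox 19 the lowest sums of T cell, B cell, plasma cell and dendritic cell markers. The 5 T cell markers summed to 94, 528, 448, 372 and 521 in affected foxes 19, 55, 107, 381 and 757, and to 1103, 193 and 238 in unaffected foxes 86, 97 and 402. The sum of the 5 squamous epithelium markers ran against these, with 15781, 9643, 11405, 15534 and 10691 in the affected foxes and 7679, 15591 and 15253 in the unaffected foxes, in the same orders. Not every marker followed that sum. In foxes 19 and 86, KRT10 read 5124 and 44.4, KRT1 1042 and 4.84, and DSG3 2452 and 1043. KRT13 read 7090.3 and 6515 and TP63 72.1 and 71.7 in these foxes, so those markers were close. Neutrophil markers, mostly calprotectin S100A8 and S100A9, which epithelium also makes, had sums between 25368 and 30323 in affected foxes and between 25194 and 28949 in unaffected foxes. The summed marker signals thus differed between foxes within each group. Whether the makeup of the gum pieces differed likewise, and its part in the values of the members, was not tested.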

How the data were processed

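Gingiva of 8 foxes was measured on 1 array each. The deposited intensity values are MAS5 signals per the submitters' processing notes (no version), and their 2% trimmed mean was 150.0 on every array. The background method is not given in the sources used here. From them, log2(signal + 16) was computed without further normalization. The 175 control and reporter probe sets and the 40% with the lowest mean were left out, which left 25716. Of the 42860 other probe sets, the platform annotation gave 29254 1 gene symbol, 439 several and 13167 none. The brightest probe set stood for a gene.

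Groups, sexes (with group as a term) and their interaction were tested with limma 3.58.1 in R 4.3.3 (Benjamini-Hochberg, threshold 0.05). The group fit was also run on simulated arrays with independent noise for each probe set. Those arrays lack the differences in 5' actin and in cell marker signals seen here, so that run does not cover them. The number of arrays limits precision (median SE 0.23). Pairs of genes were tested by exact permutation in Python 3.11.15. The planned pair of TLR7 with TLR8 was not run. All members were named, and from other lists up to 2 genes per direction by size of difference. Not every gene that rule allows is given. The members, lists and tests were chosen with earlier results of these data known. Nothing in the labels ties foxes to litters, and fox numbers do not pair samples. Alternatives covered offset, normalization, filter, covariates, weights, sex, 5' actin set, the mean of a gene's probe sets and each fox left out.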

Additional observations from a re-analysis of the deposited data

Results flagged for a closer look

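Within the 5 affected foxes, the dimmest TLR2 probe set was far lower in fox 19, at 11.9, than in the others, at 58.5 to 77.5, a gap of 0.813 of the whole range on the log2 scale. In the brightest MYD88 probe set, affected fox 757 read 907 and the others 538 to 625, a gap of 0.716 of the range. Of the 14 member probe sets, 2 passed the critical value of 0.71 for a group of 5, and chance alone marks about 1 in 20 groups. Fox 757 was the highest of the 8 foxes in the second MYD88 probe set too.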

How the results depend on the processing

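The count of probe sets called between affected and unaffected foxes was 0 in each of the 21 other settings, and that of the interaction was 0 in each of 8. The sex comparison called 1 probe set, and 1 to 2 in fits without 1 fox, with 2 without affected fox 55. The median over the members was 0.05, from -0.05 to 0.29 in fits without 1 fox and from -0.26 (low 5' actin) to 0.41 (high 5' actin) in the others. TLR3, CD14 and MYD88 kept their sign in each setting run for them, though not their size. MYD88 was -0.17 with the mean of its probe sets, against -0.34 with the brightest. TLR1 was 0.00 without unaffected fox 97 and positive in the others, and the stricter filter left it out. TLR2 was -0.20 in males only. TLR4 was -0.17 in females only and -0.44 at low 5' actin, and from -0.11 to 0.24 in fits without 1 fox. LY96 was 0.12 with the actin ratio as a covariate, 0.13 with array weights, 0.40 in females only and 0.33 at high 5' actin, and from -0.35 to 0.29 in fits without 1 fox. The cause of these changes was not tested. The settings by 5' actin were chosen after seeing the data. With 1 fox left out, r ran from 0.85 to 0.94 for TLR1 with TLR2, from 0.29 to 0.57 for TLR4 with CD14 and from 0.07 to 0.91 for TLR4 with LY96. No paired analysis was possible because the groups share no fox number. With 5 and 3 foxes, the 95% intervals of most members reach beyond 0.5 on the log2 scale.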
